A study of Mus musculus with 4 samples.

Results

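The proteasome genes were examined in regulatory T cells (Treg cells), a CD4+ lineage that depends on the transcription factor Foxp3 and holds other immune cells in check. All rows of the deposited gene table whose symbol began with Psma, Psmb, Psmc, Psmd, Psme, Psmf or Psmg and a digit were taken, which gave 50 of 24346 rows. Of these 50, 48 reached 1 FPKM in 2 or more libraries of the 4 sequenced, as did 11595 rows of the whole table. FPKM is the number of fragments per kilobase of transcript, scaled to the library's mapped fragments, so levels of different genes can be set side by side per length. The rows left out were Psma8, a testis form of an alpha subunit, at 0.0535 to 0.2 FPKM, and Psmb11, the catalytic subunit of thymic epithelium, at 0.276 to 0.478 FPKM. One of the 48, Psmc3ip, shares only the name: its protein acts in meiotic recombination and is no proteasome subunit. It was also the lowest of the 48, at 3.99 and 3.93 FPKM (WT) against 4.98 and 4.74 FPKM (dKO).

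Spleens of 16-week-old males were sorted for Thy1.2+ CD4+ cells with the Foxp3-Cre-GFP reporter, and RNA was sequenced in bulk. Mice of both groups carried Foxp3-Cre, so the recombinase was present in the controls too. The 2 wild-type libraries (WT_0 and WT_1) came from mice with unmodified Tcf1 and Lef1. The 2 dKO libraries (dKO_0 and dKO_1), labelled Tcf1-/-Lef1-/-, came from mice with both genes floxed. Tcf1 (gene Tcf7) and Lef1 are related DNA-binding proteins of T cell development. Since Cre follows Foxp3, the alleles are cut in Foxp3-expressing cells and not in the whole animal. Nothing in the labels says that the libraries of a group came from separate animals, so the p-values measure the spread between libraries, which may be technical.

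The proteasome is the main protease for ubiquitin-tagged proteins in the cytosol and nucleus. Its 20S core is a barrel of outer alpha rings, which gate the channel, and inner beta rings, which hold the active sites, and it is capped by a 19S particle that binds, unfolds and feeds in the substrate. In lymphocytes and in cells exposed to interferon-gamma, the catalytic subunits encoded by Psmb6, Psmb7 and Psmb5 are replaced in new particles by those of Psmb9, Psmb10 and Psmb8. The result is the immunoproteasome, known for cutting peptides that fit MHC class I molecules, and the PA28 activator encoded by Psme1 and Psme2 is induced with it.

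From the smallest steps in the FPKM values, depth was roughly estimated at 18800000 (WT_0), 22900000 (WT_1), 23200000 (dKO_0) and 24200000 (dKO_1) fragments. At 10 FPKM over 1 kilobase this is 188 to 242 fragments and a counting error of 6.43% to 7.29%, which covers counting only. Both floxed genes had their lowest values in the dKO libraries, with 345 and 309 FPKM (WT) against 247 and 249.6 FPKM (dKO) for Tcf7 and with 59.9 and 66.5 against 41.3 and 36 for Lef1. Neither passed the test over all rows (limma adjusted p = 0.158 for Tcf7 and 0.113 for Lef1). The gene-level values include exons outside the floxed part and do not measure the deletion. Of 6 Treg markers, 6 were detected, with a summed level of 693 and 706 FPKM in WT and 785 and 774 FPKM in dKO. The single markers were mixed, with 4 higher and 2 lower in dKO, against 52.8% of all rows higher. In bulk RNA, fewer cells of a type and less RNA per cell cannot be told apart.

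In each of the 4 libraries the RNAs of Psmb8, Psmb9, Psme1 and Psme2 were more abundant than that of any constitutive catalytic subunit. Psmb10 was close to the constitutive genes, at 141 FPKM in WT_0, where Psmb5 also had 141. By mean FPKM, Psmb8 ranked 180 among the 11595 rows tested, Psme1 214, Psme2 294 and Psmb9 296, while the constitutive Psmb5 ranked 695, Psmb7 919 and Psmb6 921. Summed over the catalytic subunits, the inducible genes had 878 and 813 FPKM (WT_0, WT_1) against 1078 and 1041 FPKM (dKO_0, dKO_1). The sums of the constitutive genes were 353 (WT_0) and 288 (WT_1) against 363 (dKO_0) and 353 FPKM (dKO_1). The inducible genes thus made up 71.3% and 73.8% of catalytic subunit FPKM in WT and 74.8% and 74.7% in dKO. These are shares of RNA per length, and the protein make-up of the particles was not measured.

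**Figure D1:**
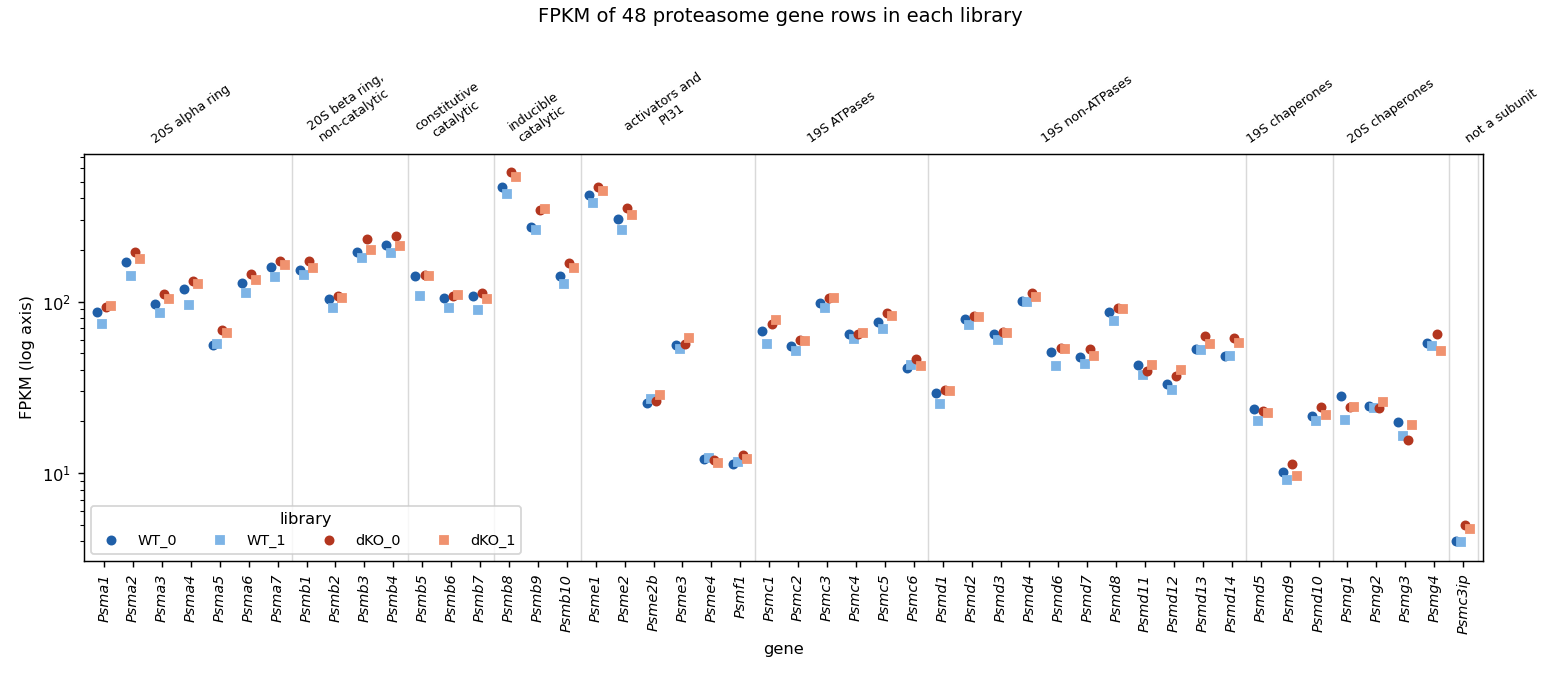
FPKM (log axis) of the 48 proteasome gene rows that passed the filter, 1 point per library, with genes grouped by their role in the complex. Psmb8, Psmb9, Psme1 and Psme2 lie above all other rows, from 260.1 FPKM in WT_1 for Psme2 to 569 FPKM in dKO_0 for Psmb8.

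The inducible catalytic genes had higher values in dKO than in WT, by 21.9% (Psmb10) to 29.3% (Psmb9) of the WT mean. Psmb9, which encodes the inducible beta1 subunit (LMP2), had 271 and 262 FPKM (WT_0, WT_1) against 342 and 349 FPKM (dKO_0, dKO_1). Both dKO libraries lay above both WT libraries, and the distance between the groups was several times the distance within either. The means were 267 ± 6.36 and 345 ± 4.89 FPKM (SD, n = 2 each), which is 29.3% more in dKO. The difference, taken here and below as dKO minus WT of log2(FPKM + 1), a scale that understates the change of low genes, was 0.37 (SE 0.061, 95% confidence interval 0.20 to 0.53), and over all rows it did not pass (limma adjusted p = 0.127, the smallest of the 48 rows). Psmb8, which encodes the inducible beta5 subunit (LMP7), had 466 (WT_0) and 425 (WT_1) against 569 (dKO_0) and 534 FPKM (dKO_1). Its groups did not overlap either, with means of 445 ± 29.1 and 552 ± 24.6 FPKM (SD, n = 2 each), a log2 difference of 0.31 (SE 0.0839) and a limma adjusted p = 0.215. Psmb10, of the inducible beta2 subunit (MECL-1), had 141 and 126 FPKM (WT_0, WT_1) against 168 and 158 FPKM (dKO_0, dKO_1). Again both dKO values exceeded both WT values, with a log2 difference of 0.29 (SE 0.0817, limma adjusted p = 0.226).

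The constitutive counterparts differed less between the groups than between the WT libraries. Psmb5, of the beta5 subunit that cuts after hydrophobic residues, had 141 (WT_0) and 107 (WT_1) against 143 (dKO_0) and 141 FPKM (dKO_1). WT_1 alone was low, and WT_0 lay between the dKO libraries, so the groups overlapped. The difference on the log2 scale was 0.20 (SE 0.144, limma adjusted p = 0.522), against 0.39 between WT_0 and WT_1. Psmb7, of the beta2 subunit that cuts after basic residues, had 108 and 89.5 FPKM (WT_0, WT_1) against 112 and 103 FPKM (dKO_0, dKO_1), with overlapping groups. Psmb6, of the beta1 subunit that cuts after acidic residues, had 104 (WT_0) and 91.4 (WT_1) against 108 (dKO_0) and 109 FPKM (dKO_1). Here the dKO values were just above WT_0 and further above WT_1. The log2 differences were 0.13 for Psmb7 and 0.15 for Psmb6, against 0.26 and 0.19 between the WT libraries (limma adjusted p = 0.594 and 0.438).

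The ratio of inducible to constitutive RNA removes any shift shared by both members of a pair. At the beta1 site, the ratio of Psmb9 to Psmb6 was 2.6 and 2.87 in WT and 3.17 and 3.21 in dKO, with no overlap of the groups. At the beta2 site, the ratio of Psmb10 to Psmb7 was 1.31 and 1.41 in WT and 1.5 and 1.53 in dKO, again with no overlap. At the beta5 site, the ratio of Psmb8 to Psmb5 was 3.3 and 3.96 in WT and 3.99 and 3.79 in dKO, and WT_1 lay between the dKO libraries. The log2 ratio was higher in dKO by 0.22, 0.16 and 0.10 in that order. In an exact two-sided permutation test the first and the second had p = 0.333, the smallest that 2 libraries against 2 allow, and the last p = 0.667 (0.5, 0.5 and 0.667 adjusted over the 3 ratios). With 2 libraries a group this permutation test cannot reach 0.05, so its p-values do not bear on whether a ratio differs. Without WT_0 the log2 ratio at the beta5 site differed by -0.027, and without WT_1 by 0.24.

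**Figure D2:**
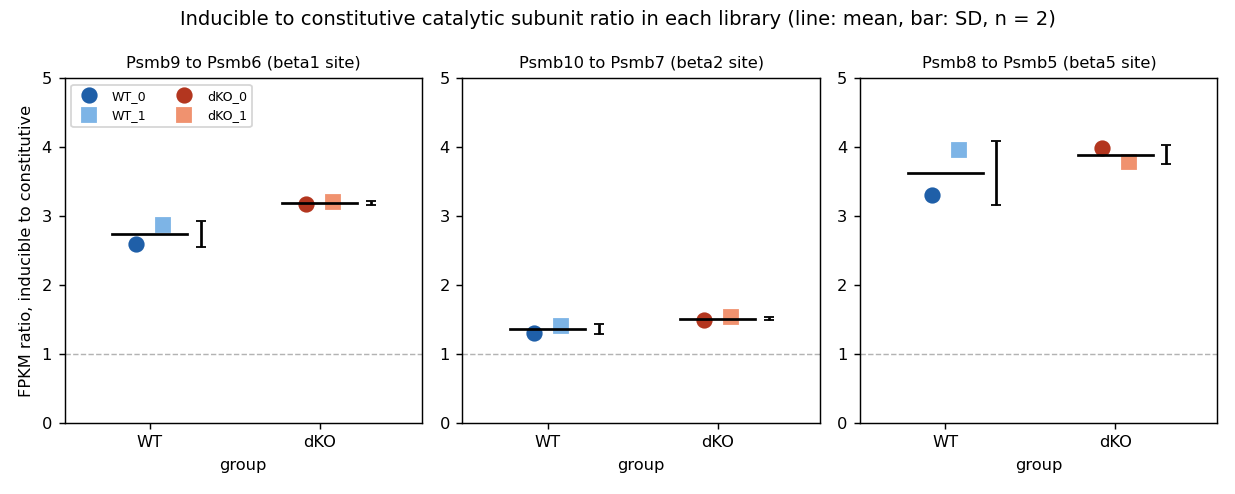
FPKM ratio of each inducible catalytic gene to its constitutive counterpart in each library, with the group mean (line) and SD (bar, n = 2). The WT values at the beta1 site (2.6 and 2.87) and the beta2 site (1.31 and 1.41) lie below both dKO values, while at the beta5 site WT_1 (3.96) lies between dKO_1 (3.79) and dKO_0 (3.99).

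Leaving out WT_1 separated the constitutive from the inducible genes further. Without WT_1 the log2 differences were 0.0071 for Psmb5, 0.053 for Psmb6 and -0.0015 for Psmb7, while Psmb8 had 0.24, Psmb9 0.35 and Psmb10 0.21. Without WT_0 they were 0.40, 0.24 and 0.26 for the constitutive genes and 0.38, 0.39 and 0.37 for the inducible genes in the same order. For the 3 inducible genes both dKO values exceeded both WT values, as they did in 27.8% of all rows tested. Leaving out any library could therefore change the size of the difference but not its direction. Each of these fits had a single library in one group, assumed to vary like the other group.

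Psmb8 and Psmb9 are neighbours in the MHC region, and the other catalytic genes lie on other chromosomes (GRCm38 coordinates, GENCODE annotation). Psmb8 lies on chromosome 17 from 34197721 to 34201454 on the plus strand and Psmb9 on the same chromosome from 34181987 to 34187764 on the minus strand, with the peptide transporter gene Tap1 between them, which starts at 34187553 on the plus strand. Psmb9 and Tap1 overlap at their 5′ ends, and Gm20496 overlaps Psmb8 on the opposite strand. The strand setting of the counting is not known here, so reads of overlapping genes cannot be told apart. Psmb10 lies on chromosome 8 from 105935735 to 105938444, Psmb5 on chromosome 14 from 54614119 to 54618022, Psmb7 on chromosome 2 from 38588036 to 38644087 (all minus strand) and Psmb6 on chromosome 11 from 70525367 to 70527858 (plus strand). Gm16156 overlaps Psmb10, and Nek6 and Gm13586 overlap Psmb7, on the opposite strand. The microRNA gene Mir686 lies within Psmb5.

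The start regions of inducible and constitutive partners are shown because the factors known to act on them differ: Nfe2l1 (Nrf1) at antioxidant response elements for the complex as a whole, and interferon regulatory factors for the inducible genes. The windows run from 250 bases before to 50 after the annotated start, 5′ to 3′ on the gene's own strand (RefSeq, GRCm38.p6). Capitals mark a gamma-activated site core (TTCNNNGAA) in Psmb8, an antioxidant response element core (TGACNNNGC) in Psmb5 and Psmb6, a CCAAT box read on the opposite strand in Psmb9 and an interferon-stimulated response element core (GAAA, any 2 bases, GAAA) read on the opposite strand in Psme1.
Psmb8, chr17:34197945-34198244, plus strand: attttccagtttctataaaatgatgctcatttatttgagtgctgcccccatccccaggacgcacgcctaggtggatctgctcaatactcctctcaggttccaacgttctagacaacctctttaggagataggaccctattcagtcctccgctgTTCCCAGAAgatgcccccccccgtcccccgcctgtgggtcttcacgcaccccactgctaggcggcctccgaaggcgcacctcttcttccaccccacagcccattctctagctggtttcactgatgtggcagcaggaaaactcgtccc
Psmb5, chr14:54617946-54618245, minus strand: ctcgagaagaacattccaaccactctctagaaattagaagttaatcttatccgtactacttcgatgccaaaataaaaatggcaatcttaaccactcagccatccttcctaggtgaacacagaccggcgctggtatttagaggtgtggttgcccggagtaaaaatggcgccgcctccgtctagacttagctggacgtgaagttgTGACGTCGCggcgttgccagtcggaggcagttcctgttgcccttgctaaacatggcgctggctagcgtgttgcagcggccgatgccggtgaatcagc
Psmb9, chr17:34187281-34187580, minus strand: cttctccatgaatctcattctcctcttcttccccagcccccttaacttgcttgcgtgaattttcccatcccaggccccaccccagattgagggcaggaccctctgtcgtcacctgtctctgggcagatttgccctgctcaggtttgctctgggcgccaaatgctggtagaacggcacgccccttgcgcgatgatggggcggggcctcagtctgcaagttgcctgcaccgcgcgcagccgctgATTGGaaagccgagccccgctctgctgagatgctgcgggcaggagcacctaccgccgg
Psmb6, chr11:70525107-70525406, plus strand: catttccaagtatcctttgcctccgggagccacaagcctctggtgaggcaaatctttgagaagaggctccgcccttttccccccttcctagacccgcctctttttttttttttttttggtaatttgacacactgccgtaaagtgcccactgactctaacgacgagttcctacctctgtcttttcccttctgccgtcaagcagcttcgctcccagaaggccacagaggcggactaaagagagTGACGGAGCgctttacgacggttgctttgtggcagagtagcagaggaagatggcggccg
Psme1, chr14:55578244-55578543, plus strand: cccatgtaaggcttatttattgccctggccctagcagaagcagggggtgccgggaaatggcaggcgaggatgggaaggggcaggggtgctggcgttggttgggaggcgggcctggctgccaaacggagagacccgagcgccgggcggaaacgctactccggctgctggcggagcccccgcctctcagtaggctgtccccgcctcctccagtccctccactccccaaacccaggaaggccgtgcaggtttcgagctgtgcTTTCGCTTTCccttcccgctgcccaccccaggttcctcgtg

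The RefSeq starts of Psmb8, Psmb9, Psmb5 and Psme1 lie inside the gene spans given from GENCODE, so positions here are relative to the RefSeq start only. The match in Psmb8 begins 97 bases upstream of that start, that in Psmb5 47 and that in Psmb6 9. The Psmb9 window shares 275 of its 300 bases with the window of Tap1, which is transcribed the other way. Tap1 had 180 and 175 FPKM (WT_0, WT_1) against 211 and 223 FPKM (dKO_0, dKO_1), so that both genes of this shared start region had higher values in both dKO libraries (log2 difference of Tap1 0.29, limma adjusted p = 0.168). Of the 48 rows, 41 had a window, and Psmb1, Psmb2, Psmb7, Psmc3, Psmd3, Psmd7 and Psmg2 were not searched. On either strand, the antioxidant response element core was in the windows of 6 of the 41 genes (14.6%) and of 14% of all genes. The interferon-stimulated core was in 5 (12.2%, and 3.99% of all genes), namely Psmb3, Psmd4, Psmd9, Psme1 and Psmg4. The gamma-activated core was in 3 (7.32%, and 9.55% of all genes), namely Psmb8, Psmd2 and Psmg1. The ETS core CCGGAAG was in 15 (36.6%, and 9.93% of all genes), CCAAT in 14 (34.1%, and 41.1%) and the TCF/LEF core CTTTGAT in 2 (4.88%, and 4.29%), Psmd4 and Psmd10. A match describes letters in a short window and shows no binding, and genes with several windows had more chances of one.

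The PA28 genes, whose ring opens the gate of the core without ubiquitin, had levels in the range of Psmb8 and Psmb9 and above that of Psmb10. Psme1, of PA28 alpha, had 419 (WT_0) and 377 (WT_1) against 466 (dKO_0) and 441 FPKM (dKO_1), and Psme2, of PA28 beta, had 302, 260.1, 350.02 and 322 FPKM in the same order. For both genes the dKO libraries were above the WT libraries (27.8% of all rows) and WT_1 was lowest (30.8% of all rows). The ratio of Psme1 to Psme2, whose products join in one ring, stayed between 1.33 and 1.45 in the 4 libraries. The log2 differences were 0.19 (SE 0.0854) and 0.26 (SE 0.102), with limma adjusted p = 0.357 and 0.311. Psme1 (chromosome 14, from 55578123, plus strand) is overlapped by Emc9, and Psme2 has a retrocopy, Psme2b, at 25.5 to 28.6 FPKM. Reads shared between Psme2 and Psme2b can be split wrongly, so both values are uncertain.

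The other activators and the inhibitor had lower levels and smaller differences. Psme3, of the nuclear PA28 gamma, had 54.4 ± 2.22 (WT) and 59.1 ± 3.46 FPKM (dKO) (SD, n = 2 each; log2 difference 0.12). Psme4, of the activator PA200, had 12.1 and 12.3 FPKM (WT_0, WT_1) against 11.9 and 11.4 FPKM (dKO_0, dKO_1). It was the only one of the 48 rows with both dKO libraries below both WT libraries (log2 difference -0.06, limma adjusted p = 0.683). Psmf1, of the inhibitor PI31, had 11.5 ± 0.217 FPKM in WT libraries and 12.4 ± 0.492 FPKM in dKO libraries (log2 difference 0.10).

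All 7 alpha ring genes had both dKO libraries above both WT libraries, as did 27.8% of all rows tested. They summed to 817 (WT_0) and 704 (WT_1) against 917 (dKO_0) and 866 FPKM (dKO_1), which is 17.3% more in dKO by the means. The products are incorporated in equal numbers, yet mean RNA levels spread over 2.77-fold, from 61.7 FPKM for Psma5 to 171 for Psma2. Of these, Psma5 had the smallest distance between WT libraries, at 56.1 and 56.2 FPKM, against 68.6 and 65.8 in dKO (log2 difference 0.25, SE 0.0552, limma adjusted p = 0.168). Psma2 had 170 and 142 FPKM (WT_0, WT_1) against 194 and 178 FPKM (dKO_0, dKO_1) (log2 difference 0.26, SE 0.111, limma adjusted p = 0.341). The 4 beta ring genes with no active site in their products (Psmb1 to Psmb4) ran from 102 FPKM for Psmb2 to 215 for Psmb4 by mean. Their log2 differences were 0.13 to 0.21. In 3 of 4 both dKO libraries lay above both WT libraries (27.8% of all rows), the exception being Psmb4.

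The 19S subunit genes had mean levels from 28.7 FPKM (Psmd1) to 105 FPKM (Psmd4) and log2 differences from 0.04 (Psmd11) to 0.30 (Psmc1). The 6 ATPase genes, whose products form the ring that unfolds substrates, summed to 403 (WT_0) and 372 (WT_1) against 436 (dKO_0) and 433 FPKM (dKO_1). Among them Psmc1 had the largest difference, with 67.6 and 56.6 FPKM (WT_0, WT_1) against 74 and 78.5 FPKM (dKO_0, dKO_1) (log2 difference 0.30, SE 0.104, limma adjusted p = 0.281). The highest by mean was Psmc3, at 94.7 ± 4.75 (WT) and 105 ± 0.0523 FPKM (dKO), and the lowest Psmc6, at 41.7 ± 1.04 and 44.2 ± 3.14 FPKM (SD, n = 2 each). The 11 non-ATPase genes summed to 635 (WT_0) and 589 (WT_1) against 690 (dKO_0) and 672 FPKM (dKO_1). Psmd14, of the deubiquitinase Rpn11 that strips the ubiquitin chain, had WT libraries close to each other, with 48 and 48.3 FPKM (WT_0, WT_1) against 61.1 and 57.3 FPKM (dKO_0, dKO_1). The dKO values were above WT by far more than the distance within WT (log2 difference 0.29, SE 0.0604, limma adjusted p = 0.16). Psmd4, of the ubiquitin receptor Rpn10, was the highest of these genes at 100.35 ± 0.423 (WT) and 109 ± 3.88 FPKM (dKO), and Psmd1, of the scaffold Rpn2, the lowest at 27.1 ± 2.81 and 30.2 ± 0.392 FPKM.

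The assembly chaperones, which are not part of the finished particle, had class medians of 0.11 (19S chaperones) and 0.02 (20S chaperones) on the log2 scale, the latter being -0.012 after quantile normalization. The 20S chaperone genes Psmg1 to Psmg4 summed to 130 (WT_0) and 116 (WT_1) against 129 (dKO_0) and 121 FPKM (dKO_1), so WT_0 was highest. The groups overlapped for each of the 4. Psmg1 had 28.3 FPKM in WT_0, 20.4 in WT_1 and 24.2 and 24.3 in dKO, with a log2 difference of 0.009 (95% confidence interval -0.43 to 0.45). The sign turned with quantile normalization for Psmg1 and Psmg4, with median centring for Psmg1, and with 1 library left out for each of the 4. Psmg3 had 19.8 and 16.4 (WT) against 15.6 and 19.1 FPKM (dKO) (log2 difference -0.06), and Psmg2 and Psmg4 had a log2 difference of 0.04 each. The 19S chaperone genes Psmd5, Psmd9 and Psmd10 had log2 differences of 0.05, 0.11 and 0.14, with Psmd9 the lowest in level at 9.59 ± 0.715 (WT) and 10.5 ± 1.15 FPKM (dKO).

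**Figure D3:**
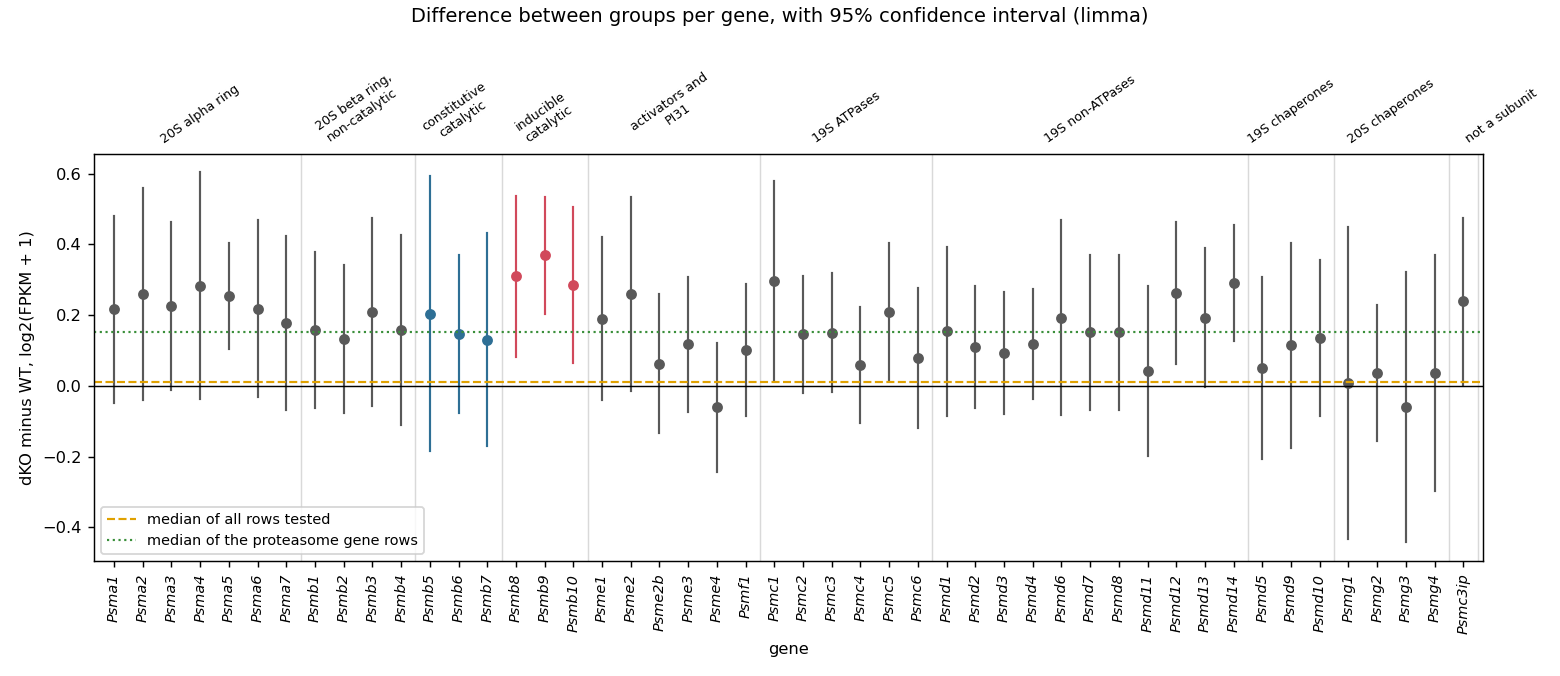
Difference between the groups for each of the 48 rows (dKO minus WT of log2(FPKM + 1)) with its 95% confidence interval from limma, constitutive catalytic genes in blue and inducible ones in red. The rows have a median of 0.15 (dotted) against 0.01 for all rows tested (dashed), and the inducible genes lie between 0.29 and 0.37.

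Taking the 48 rows as a set, 46 had a higher mean log2 value in dKO, against 52.8% of all rows tested. In 35 both dKO libraries exceeded both WT libraries, against 27.8% of all rows tested. One had both dKO libraries below both WT libraries, against 23.4% of all rows tested, and 12 overlapped. The median log2 difference was 0.15 against 0.01 over all rows. By limma, 0 of the 48 rows were called at an adjusted p under 0.05, against 40 of all rows or 0.345%. At an unadjusted p under 0.05, 9 were higher in dKO, against 9.64% of all rows, and 0 were lower, against 7.08%. The 9 were Psma5, Psmb8, Psmb9, Psmb10, Psmc1, Psmc5, Psmd12, Psmd14 and Psmc3ip. None of the 48 had in the authors' deposited table a q under 0.05, against 3.06% of the rows tested here, and only Psmb8 and Psmb9 had a p under 0.05, against 9.2%. The smallest q of a proteasome gene in the authors' deposited table was 0.278, for Psmb9, and none was in the authors' lists of 185 higher and 147 lower genes. Those lists took a fold of at least 1.5. The largest fold of the 48 rows was 1.29 and the lowest log2 fold change -0.065, so none could enter the lists whatever its q. Without Psmc3ip, 45 of 47 rows were higher and 34 had both dKO libraries above both WT libraries. By limma 8 of the 47 were higher at an unadjusted p under 0.05. Most rows belong to 1 complex and all were measured in the same libraries, so they are not independent of each other.

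The size of the shared difference moved with 1 library, while most rows kept a higher value in dKO. WT_1 was lowest for 39 of the 48 rows, against 30.8% of all rows tested, and dKO_0 was highest for 34, against 25.1%. WT_0 exceeded WT_1 in 42 rows, with a median log2 distance of 0.13, nearly that between the groups, and in 22 rows the distance within WT was larger than that between the groups. The median log2 difference of the 48 rows was 0.24 without WT_0 and 0.10 without WT_1, and 47 and 42 rows were higher in dKO, respectively. After quantile normalization 44 rows were higher with a median of 0.10 (-0.0057 over all rows), and after median centring 45 with a median of 0.13 (-0.0091 over all rows). Median centring and quantile normalization moved the share of all rows higher in dKO from 52.8% to 47.7% and 48.5%.

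**Figure D4:**
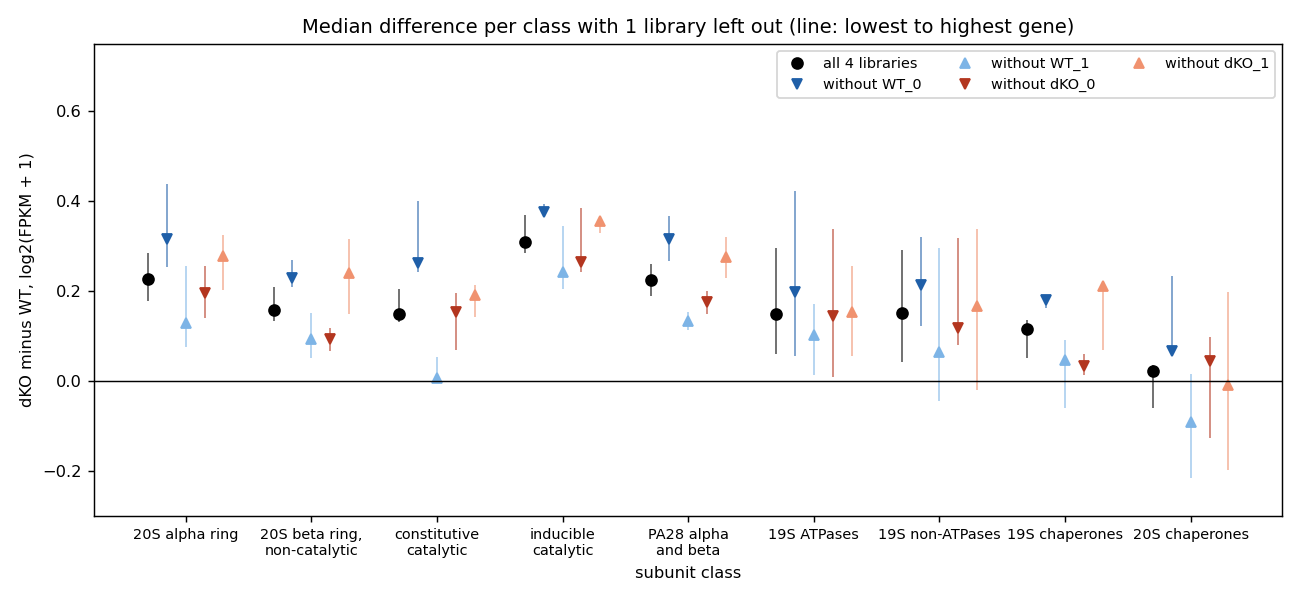
Median difference of each subunit class (symbols; lines from the lowest to the highest gene) with all 4 libraries and with each library left out. Without WT_1 the constitutive catalytic genes have a median of 0.0071 and the 20S chaperones -0.09, while the inducible catalytic genes have 0.24 and the alpha ring genes 0.13.

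Other genes of the pathway had mixed directions outside antigen presentation. Of 11 MHC class I antigen processing genes, 0 were called by limma (0.345% of all rows). At an unadjusted p under 0.05, 5 were higher, against 9.64% of all rows. All 11 had a higher mean in dKO (52.8% of all rows), 10 had both dKO libraries above both WT libraries (27.8% of all rows), and their median log2 difference was 0.23. Besides Tap1 they included Tap2, the partner of Tap1 in the peptide transporter, at 203, 202, 238 and 236 FPKM in WT_0, WT_1, dKO_0 and dKO_1 (limma adjusted p = 0.189). Tapbp, of the loading factor tapasin, had 229 ± 8 (WT) and 271 ± 1.53 FPKM (dKO) (SD, n = 2 each; limma adjusted p = 0.195), and the editing factor gene Tapbpl had a log2 difference of 0.27 (limma adjusted p = 0.222).

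Of 15 genes of the interferon-gamma axis, which induces the immunoproteasome, 11 had a higher mean in dKO (52.8% of all rows). By limma 0 were called (0.345% of all rows). An unadjusted p under 0.05 was reached by 6 with higher and 2 with lower values, against 9.64% and 7.08% of all rows. Gbp2, a GTPase gene induced by interferons, had 54.2 and 49.5 (WT) against 90.1 and 82.8 FPKM (dKO) (log2 difference 0.73, limma adjusted p = 0.0768), and the related Igtp had 148 ± 4.66 and 202 ± 3.3 FPKM (limma adjusted p = 0.106). Ifngr2, of a chain of the receptor itself, went the other way, with 24.9 and 28.6 (WT) against 20.03 and 19.8 FPKM (dKO) (log2 difference -0.40, limma adjusted p = 0.168). These genes were named for the smallest p in the list, so by selection their groups lie further apart than the libraries within them. Of all 15, 8 had both dKO libraries above both WT libraries (27.8% of all rows), and 4 had a lower mean in dKO.

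Of 17 partners of the proteasome outside the Psm names, 11 had a higher mean in dKO (52.8% of all rows) and 6 a lower mean. Their median log2 difference was 0.03, with 0 called by limma (0.345% of all rows). An unadjusted p under 0.05 was reached by 1 higher and 1 lower gene, against 9.64% and 7.08% of all rows. Rad23b, of a shuttle that carries ubiquitinated substrates, had 34.9 ± 0.1 (WT) and 41.6 ± 0.642 FPKM (dKO) (limma adjusted p = 0.165). The shuttle gene Ubqln4 had 25 ± 1.01 and 20.8 ± 0.0375 FPKM (limma adjusted p = 0.19), and Zfand2a and Ubqln1 had log2 differences of -0.35 and -0.14. Of 11 genes listed with the Nfe2l1 axis, 4 had a higher mean (52.8% of all rows) and 7 a lower. That axis restores proteasome gene transcription when the protease is blocked. The list was wider than the axis and also held Nfe2l2, Keap1, Nfya, Nfyb and Nfyc. By limma 0 were called, and 1 (Nfyb) was higher at an unadjusted p under 0.05 (9.64% of all rows). Ddi2, of the protease that releases Nfe2l1 from the endoplasmic reticulum membrane, had 24.7 and 24.8 (WT) against 20.8 and 23.5 FPKM (dKO) (limma adjusted p = 0.404). Mafk and Nfyc had log2 differences of -0.15 and -0.10. Of 13 genes of the p97 unfoldase, which pulls ubiquitinated proteins from complexes and membranes, 6 were higher (52.8% of all rows) and 7 lower. Their median log2 difference was -0.002, with 0 called by limma and 1 (Ubxn7) lower at an unadjusted p under 0.05 (7.08% of all rows). Vcp, the gene of p97 itself, had 128 and 116 FPKM in the WT libraries and 129 and 127 FPKM in the dKO libraries. None of the 13 had both dKO values above both WT values, against 27.8% of all rows.

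Genes of dividing cells and of other cell types varied across the same libraries. Of 24 cell cycle genes, all had both dKO libraries above both WT libraries and were lowest in WT_1, against 27.8% and 30.8% of all rows. Their median log2 difference was 0.80, with 0 called by limma (0.345% of all rows) and 23 higher at an unadjusted p under 0.05 (9.64% of all rows). The 4 with the smallest p were Mcm3 and Rrm2 of DNA replication, Tpx2 of the spindle and Tyms of thymidylate synthesis, with log2 differences of 0.72, 0.92, 0.73 and 0.56. The summed level of the 24 genes was 638 (WT_0) and 481 (WT_1) against 832 (dKO_0) and 874 FPKM (dKO_1). B cell markers, of which 9 of 9 tested were lowest in WT_1, summed to 131 and 48 FPKM (WT_0, WT_1) against 129 and 196 FPKM (dKO_0, dKO_1). Dendritic cell markers summed to 444 and 450.2 (WT) against 469 and 552 FPKM (dKO), with Xcr1, Clec9a and Siglech under 1 FPKM in every library. Of the 9 tested, 5 were higher and 4 lower in dKO, against 52.8% of all rows higher. Monocyte and macrophage markers, lower in 12 of 12, summed to 866 and 990 (WT) against 785 and 762 FPKM (dKO). The sums of plasma cell markers were 393 and 285 (WT) against 236 and 195 FPKM (dKO), those of neutrophil markers 379, 97.2, 76.5 and 121 FPKM in WT_0, WT_1, dKO_0 and dKO_1, and those of NK cell markers 217, 276, 197 and 174. Cd8a and Cd8b1 summed to 8.21 to 10.1 FPKM, erythroid markers to 5.97 to 71.3 and general T cell markers to 2273 to 2408. Proteasome genes are active in all these cells, and the part of other cells or of cell division in the proteasome values was not tested.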

How the data were processed

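RNA was measured in 2 WT and 2 dKO libraries. The submitters' processing notes name Cuffdiff 2.2.1, TopHat2 2.1.0 and FastQC, with mm10 as the genome build. The sources used here give no annotation, strand setting or read filter. The files the authors deposited hold FPKM per library and per group, the log2 fold change, and a p-value and q-value for each gene. Library columns end in 0 and 1 while titles count replicates from 1, so each column was tied to its group only. A Cuffdiff FPKM shares out fragments that map to several genes, which bears on gene copies.

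Here log2(FPKM + 1) was tested with limma 3.58.1 in R 4.3.3 (intensity trend, two-sided, Benjamini-Hochberg adjustment over 11595 rows, called under 0.05), on rows that reached 1 FPKM in 2 libraries. The fit had 2 residual and 2.31 prior degrees of freedom. The script was tested on simulated data with changes larger than any of the proteasome gene rows, so recovery of differences of their size was not tested. Depth was estimated from the value of 1 fragment in single-transcript genes of 800 to 6000 bases, by annotated length. The steps were not clean (periodicity 0.265 to 0.326 per library, where 1 is exact), so the depths and counting errors are rough. Ratios were tested by exact permutation in SciPy 1.17.1. Alternatives were another pseudocount (0.1), other filters, scalings and blocks, no trend, small RNA rows left out and each library left out.

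The members and lists were chosen with earlier results of these data known. The genes named in full are the catalytic, PA28, PA200 and PI31 genes, the 5 rows at each end of the differences, the highest and lowest of each class, and up to 4 genes per pathway list with the smallest p, 1 of which is not reported here. Other genes named were chosen after their values were seen.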

Additional observations from a re-analysis of the deposited data

How the results depend on the processing

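None of the 48 proteasome gene rows was called by limma under any alternative, and the smallest adjusted p was 0.0534 for Psmb9, with small RNA rows left out. The count of all rows called was 40, and 16 without a filter on low values, 186 with small RNA rows left out and 2 to 217 with 1 library left out (177 without WT_0, 217 without WT_1 and 2 without either dKO library). Called genes of the pathway lists were 0, and 4 with small RNA rows left out (Gbp2, Igtp, Mcm3 and Rrm2) and 0 to 17 with 1 library left out, 16 of the 17 being cell cycle genes without WT_0. The median log2 difference of the proteasome gene rows, 0.15, ranged from 0.10 to 0.24 with 1 library left out. The log2 ratio of Psmb8 to Psmb5 differed by 0.10 between the groups and by -0.027 to 0.24 with 1 library left out, that of Psmb9 to Psmb6 by 0.15 to 0.29 and that of Psmb10 to Psmb7 by 0.10 to 0.21. Of 10 reversed single-gene values, quantile normalization gave -0.0054 for Psmg1 and -0.018 for Psmg4, and median centring -0.012 for Psmg1. With 1 library left out, Psmg1 ranged from -0.22 to 0.23, Psmg2 from -0.026 to 0.098, Psmg3 from -0.20 to 0.078, Psmg4 from -0.13 to 0.20, Psmb7 from -0.0015 to 0.26 and Psmd5 from -0.061 to 0.16. The cause of these changes was not tested. The other 386 values of single genes kept their direction and their side of the threshold, or, for class sums, moved by less than 1 SD. Filters, blocks, no trend and leaving out small RNA rows cannot change a gene's difference, only its adjusted p. Leaving out 1 of 2 libraries moves a group mean by less than 1 SD, so class sums could hardly fail that rule. The summed 20S chaperones had a dKO over WT fold of 1.01, but 0.957 without WT_1, 0.982 without dKO_0 and 0.987 after quantile normalization. These counts cover the proteasome genes named in full and the class sums, not all 48 rows. Outside them, the lowest log2 difference of a 19S non-ATPase gene was 0.04 with all libraries, -0.045 without WT_1 and -0.020 without dKO_1.

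The libraries of the groups share the numbers 0 and 1. The deviations of same-numbered libraries correlated at -0.11 across all 11595 rows tested, so the numbers were not taken as pairs. In the 48 proteasome gene rows the number 0 libraries were mostly higher, WT_0 than WT_1 in 42 and dKO_0 than dKO_1 in 36. Their median log2 distances were 0.13 and 0.059, against 0.00068 and 0.0040 over all rows. With the number as a replicate block 7 rows were called, and with the crossed pairing, an alternative chosen after seeing the data, 22; 0 of them were proteasome genes or genes of the pathway lists. Each block holds 1 library of each group, so by construction it cannot change the differences, and their median of 0.15 stays as it is. A counting error of 6.43% to 7.29%, at 10 FPKM over 1 kilobase, limits what rows of that level and length can show, and it is smaller for longer transcripts.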
